A study of Mus musculus with 10 samples.

Results

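The mRNAs described here encode proteins of the cytoplasmic ribosome of primary mouse embryonic fibroblasts. A probe set was taken as a member if the array annotation named it for exactly 1 gene with an Rpl or Rps symbol followed by a number, or for Rplp0, Rplp1, Rplp2 or Rpsa, with S6 kinases and pseudogenes left out. That rule gave 47 probe sets of 34 genes, of 12422 ordinary probe sets on the array. They cover 16 large subunit genes, 17 small subunit genes and Rplp0. A further 2 probe sets met the pattern but belong to the pseudogene Rps4l, so they were left out. Another 39 probe sets list a ribosomal protein gene together with other genes, and these are not members. Among genes listed for description, Rps6, Rplp1, Rplp2, Rpl3, Rpl5, Rpl10, Rpl11, Rps27a, Rpl22l1 and Rpl3l have no member probe set.

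The cells came from embryos at day 14.5 on a C57/BLACK6 background, and all carried 1 disrupted Atf1 allele (ATF1 +/-), so no group is wild type. Cultures near confluency were starved in 1% dialyzed fetal bovine serum for 48 h. They then received 10% serum (serum-treated) or 1% serum (starved) for 2 h. RNA came from 3 pools: total cytoplasmic RNA, undertranslated RNA (mRNA with no ribosome, a ribosomal subunit or a single ribosome on a sucrose gradient) and polyribosome-associated RNA (2 or more ribosomes). Each of the 4 gradient groups has 2 arrays and each of the 2 cytoplasmic groups has 1, which makes 10 arrays. Gradient cultures received cycloheximide, which freezes ribosomes on mRNA, at 100 ug/ml for 30 min, and cytoplasmic cultures did not, so that treatment and the pool cannot be told apart. Replicate 2 of every gradient group came from cultures labelled with 4-thiouridine at 200 uM and with 3H-cytidine, and replicate 1 did not. Each gradient sample pooled fractions from several cultures, and the p-values below therefore reflect how pooled samples differ, which may be partly technical. Below, paired values are replicate 1 and then replicate 2, and intensities are the deposited linear values.

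Every ribosome carries 1 copy of most ribosomal proteins, so growing cells make these proteins in large and matched amounts. In vertebrates their mRNAs begin with a C followed by an unbroken run of C and T, the 5′ terminal oligopyrimidine or TOP tract. TOP mRNAs are known to leave polyribosomes when growth factors are withdrawn and to return to them when serum activates the kinase mTOR, with the cap-binding protein Larp1 holding the resting mRNAs. The recruitment is a change in ribosome association and needs no change in mRNA amount.

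The starts of these mRNAs are shown first because that tract is the feature the family is known for. RefSeq (GRCm38.p6) gave 37 annotated starts for 28 of the 34 genes. Each window below runs from 10 bases before the annotated start to 20 bases from it, 5′ to 3′, and capitals mark the longest run of at least 6 bases that begins with C and holds only C and T. Rpl13a and Rps24, not shown, carry such a run whose first base lies within 3 bases of the annotated start. So do these 4 genes:
Rps10: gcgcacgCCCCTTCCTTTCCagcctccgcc
Rps18: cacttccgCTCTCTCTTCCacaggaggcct
Rpl38: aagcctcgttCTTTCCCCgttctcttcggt
Rps27: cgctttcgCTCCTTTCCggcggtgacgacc
They lie at chr17:27635225-27635254 on the minus strand, chr17:33955646-33955675 on the minus strand, chr11:114668570-114668599 on the plus strand and chr3:90213629-90213658 on the minus strand. These 3 genes, which stand at either end of the loading scale below, carry none in the window:
Rplp0: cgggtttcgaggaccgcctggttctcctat
Rpl41: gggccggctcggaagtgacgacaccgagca
Rps28: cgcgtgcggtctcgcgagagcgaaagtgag
They lie at chr5:115559457-115559486 on the plus strand, chr10:128549149-128549178 on the minus strand and chr17:33824543-33824572 on the minus strand. A run was present at 17 of the 37 annotated starts (45.9%), against 22% of all 32851 starts in the table. Counted by gene, 16 of the 28 had a run at any of their starts. On the opposite strand, 5 of the 28 genes held the matching run of G and A at any of their starts. Over all starts it was 25.2%, a share of starts and not of genes. The annotated start need not be the start used in these cells, so a window without a run says only that those letters are not in it.

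Signal differed between the pools before any scaling. Array medians were 19 and 19.1 in cytoplasmic RNA, 5.7 to 8.8 in undertranslated RNA and 45.15 to 54 in polyribosome RNA, and the amount of RNA hybridized is not given in the sources used here. In bulk samples like these, fewer cells and less RNA per cell cannot be told apart. Background on an array means here the brightest of 19 control probe sets for sequences that were not spiked in, and it lay between 6.7 and 16.1. Of 20 probe sets for fibroblast markers such as Col1a1, Col1a2 and Vim, 17 to 19 were above background on each array. Of 19 probe sets for macrophage markers, 5 to 13 were above it. So were 2 to 7 of 12 for endothelial, 1 to 6 of 10 for epithelial, 2 to 6 of 8 for muscle and 1 to 4 of 5 for erythroid markers. Being above background thus does not by itself identify the cells. The fibroblast markers had the highest summed intensity of these lists on every array (919.6 to 47307). Replicate arrays correlated at r = 0.97 in polyribosome RNA and at 0.89 and 0.79 in starved and serum-treated undertranslated RNA, and the number of arrays limits the precision.

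Many ribosomal protein probe sets, though not all, were among the brightest signals on every array. Of the 47 probe sets, 29 (25 genes) were above background on all 10 arrays, and 6 were above it on none. The median of those 29, which were chosen by their signal, stood between the 98.1th and 99th percentile of each array. Over all 47 the median stood at percentiles 68.5 to 72.1 on polyribosome arrays. It stood at 76.2 and 77.8 on cytoplasmic arrays and at 83.4 to 89.9 on undertranslated arrays. Together the 47 carried 2.43% to 3.27% of all signal on polyribosome arrays, 2.9% and 3.06% on cytoplasmic arrays and 6.69% to 7.04% on undertranslated arrays. This summed share in undertranslated RNA lay above every array of the other pools. It is weighted to the brightest probe sets and does not describe the family as a whole. On undertranslated arrays the brightest were Rps24 97696_r_at (5894 to 7983), whose identity is uncertain (below), and Rps28 98085_f_at (3394 to 6678). For most of the 29 the mean deposited intensity was highest in polyribosome RNA and lowest in undertranslated RNA.

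**Figure D1:**
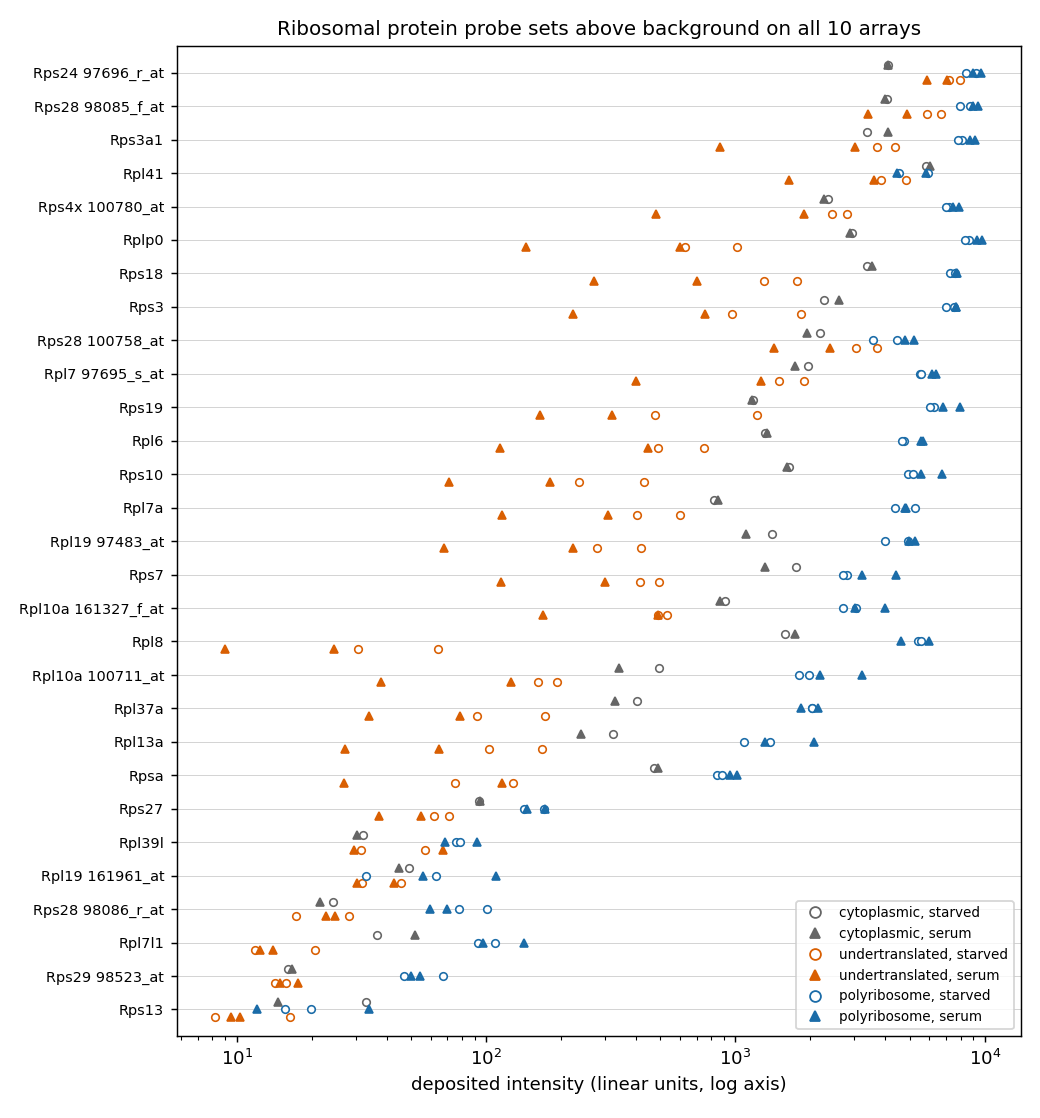
Deposited intensity (x axis, linear units on a log axis) of the 29 ribosomal protein probe sets above background on all 10 arrays (y axis, ordered by mean level); grey is cytoplasmic, orange undertranslated and blue polyribosome RNA, open circles are starved and filled triangles serum-treated arrays, 1 point per array. Rpl8 has undertranslated values of 9 to 64.2 beside polyribosome values above 4600, while the 3 pools of Rps24 and Rpl41 lie close together.

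The 5 brightest members by mean normalized level were Rps24 (probe set 97696_r_at), Rps28 (98085_f_at), Rps3a1, Rpl41 and Rps4x (100780_at). The bright Rps24 probe set read 7169.5 and 7983 in undertranslated RNA of starved cells and 5894 and 7038 in that of serum-treated cells, 9214 and 8417 (starved) and 9687 and 9009 (serum-treated) on the polyribosome arrays, and 4086 and 4076 in cytoplasmic RNA. Its 7983 in replicate 2 of the starved undertranslated RNA was the highest value of any probe set on that array. Its annotation cites the same GenBank record as Rpl7 probe set 97695_s_at, so its identity is uncertain, and the other Rps24 probe set never exceeded 25.3. The 5 dimmest were Rps4x (162229_at and 161654_r_at), Rps14, Rps29 (162335_at) and Rps15, all left out of the tests. Their deposited values spanned 0.4 to 19.8, and Rps27l (160389_r_at), the p53-inducible paralog of Rps27, stayed below background on every array with values of 0.9 to 8.8. The tests cover the 38 members (30 genes) that passed a filter on low mean level, among 9316 probe sets in all. Because the filter uses the mean over all arrays, a member could pass through 1 bright pool alone.

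Polyribosome loading is used here for the log2 level in polyribosome RNA minus that in undertranslated RNA after quantile normalization, so it places an mRNA relative to the others on the arrays. Ribosomal protein mRNAs lay along a wide range of loading, from 4.26 (Rpl8) to -4.17 (Rpl32). Averaged over both serum states, 9 of 38 members were higher in polyribosome RNA and 15 were lower at an adjusted p under 0.05, where 28.8% and 25.3% of all probe sets passed in those directions. The member median was -0.32 against 0.05 for all 9316. Among the 3624 probe sets that exceeded background on every array, 792 were higher and 1485 lower with a median of -0.36, and among the 29 such members 8 were higher and 11 lower with a median of -0.24. Without that scaling the split was 30 higher and 1 lower, where 91.9% and 0.397% of all probe sets passed. With median centring it was 15 and 15 (45.6% and 22.5% of all), and with scaling to hybridization controls 34 and 1 (95.1% and 0.311% of all), so "lower" below means lower than the bulk of mRNAs and in most cases not lower in deposited intensity.

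**Figure D2:**
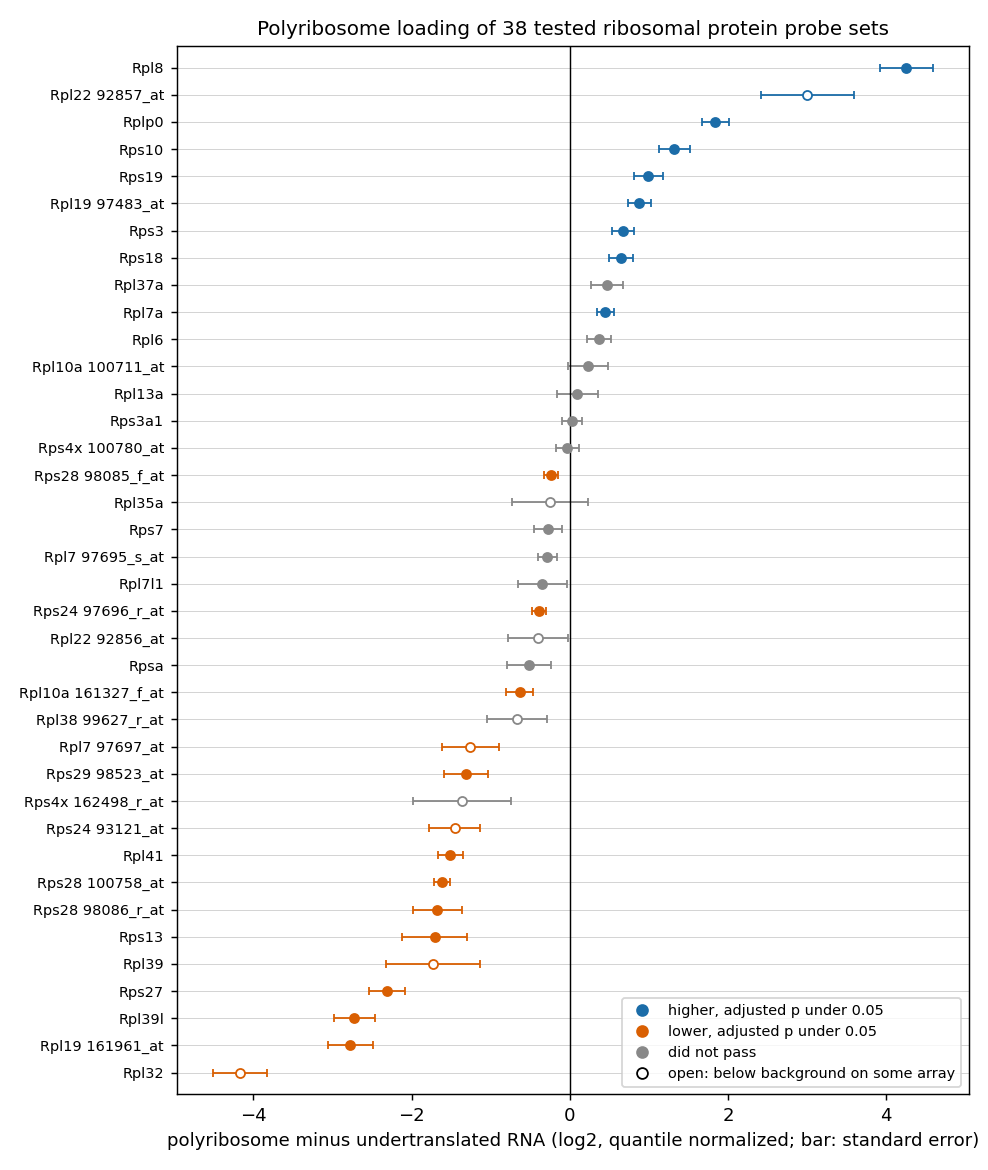
Polyribosome minus undertranslated RNA (x axis, log2 after quantile normalization, 4 arrays in each pool, bars are standard errors of the limma fit) for the 38 tested members (y axis); blue passed as higher, orange as lower, grey did not pass, and open points were below background on at least 1 array. The members run from 4.26 for Rpl8 to -4.17 for Rpl32, with 9 blue and 15 orange points.

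Rpl8, a large subunit protein next to the peptidyl transferase centre, had the highest loading. It read 30.6 and 64.2 on starved and 9 and 24.6 on serum-treated undertranslated arrays, against 5383 and 5529 (starved) and 4636 and 5987 (serum-treated) on the polyribosome arrays and 1576 and 1732 in cytoplasmic RNA. Every undertranslated value lay far below every value of the other pools. Its loading was 4.26 ± 0.33 (adjusted p = 5.2e-05).

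Rpl22, an RNA-binding large subunit protein, was next through its brighter probe set (92857_at). That probe set read 2.5 and 16.4 on starved and 1.4 and 4.5 on serum-treated undertranslated arrays and 486 and 300.1 (starved) and 191 and 312 (serum-treated) on the polyribosome arrays. Only 1 of the 4 undertranslated arrays was above background, and its loading of 3.00 ± 0.59 (adjusted p = 0.0031) had the widest error of the 9. In serum-treated cells, where both undertranslated arrays were below background, the fold was at least 2.88-fold higher in polyribosome RNA, a bound that holds within this scaling only. The second Rpl22 probe set (92856_at) had a loading of -0.40 ± 0.38 (adjusted p = 0.4), so the 2 probe sets of this gene disagree.

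Rplp0 anchors the acidic stalk that calls elongation factors to the ribosome. It read 628 and 1019 (starved) and 144 and 601 (serum-treated) in undertranslated RNA against 8672 and 8337 (starved) and 9329.7 and 9764 (serum-treated) in polyribosome RNA. Its loading was 1.84 ± 0.17 (adjusted p = 0.0001). Rps10, a small subunit protein mutated in some Diamond-Blackfan anemias, read 237 and 430 (starved) and 71.4 and 181 (serum-treated) against 4935 and 5134 (starved) and 5555 and 6756 (serum-treated). Its loading was 1.32 ± 0.19 (adjusted p = 0.00071). As for Rpl8, the deposited undertranslated and polyribosome values did not overlap for either gene. With the values as deposited, 91.9% of all probe sets passed as higher in polyribosome RNA.

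Of the other 5 called higher, Rps19, the gene most often mutated in Diamond-Blackfan anemia, had a loading of 0.99 ± 0.19 (adjusted p = 0.0025). Its undertranslated values were 475 and 1223 in starved and 164 and 321 in serum-treated cells, against 6283 and 6056 (starved) and 6789 and 7927 (serum-treated). Rpl19, which bridges the subunits, had a loading of 0.88 ± 0.15 (adjusted p = 0.0015) through its brighter probe set. Rps3, which lines the mRNA entry channel, was at 0.67 ± 0.14 (adjusted p = 0.004). Rps18, in the head of the small subunit, was at 0.65 ± 0.15 (adjusted p = 0.0063). Rpl7a closed the group at 0.45 ± 0.11 (adjusted p = 0.0098). All 9 were higher in each of the 4 same-numbered pairs of arrays.

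Of the 15 members called lower, Rpl32 had the lowest loading, -4.17 ± 0.34 (adjusted p = 6.5e-05), through an _r_at probe set that never exceeded 2.9 in polyribosome RNA. It read 9.5 and 12.8 on starved and 16.3 and 21.7 on serum-treated undertranslated arrays, above background on all 4, but 2.9 and 1.2 (starved) and 2.8 and 2.9 (serum-treated) on the polyribosome arrays, below background on all 4. Its polyribosome level is therefore a limit, and the fold was at least 6.35-fold lower within this scaling. It was the 1 member called lower with the values as deposited.

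Rpl41, the smallest ribosomal protein, was bright in every pool. It read 3821 and 4846 on starved and 1640 and 3591 on serum-treated undertranslated arrays, 5902 and 4540.3 (starved) and 4453 and 5801 (serum-treated) on the polyribosome arrays, and 5824 and 6059 in cytoplasmic RNA. In replicate 2 of the starved cells the undertranslated value was above the polyribosome value, as it also was for Rpl19 161961_at, Rps13 and Rps28 100758_at. Its loading was -1.51 ± 0.16 (adjusted p = 0.00016). Rps28, a small protein near the mRNA exit channel, was called lower through all 3 of its probe sets. The 100758_at probe set read 3053 and 3684 (starved) and 1429.5 and 2388 (serum-treated) in undertranslated against 4444 and 3580.1 (starved) and 5182 and 4797 (serum-treated) in polyribosome RNA, and its loading was -1.62 ± 0.10 (adjusted p = 2.4e-05). The 98086_r_at probe set gave -1.67 ± 0.31 (adjusted p = 0.0023) and the brightest, 98085_f_at, -0.24 ± 0.09 (adjusted p = 0.045).

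Rps27, a zinc finger protein of the small subunit, read 71.4 and 61.9 (starved) and 37.1 and 54.7 (serum-treated) in undertranslated RNA and 171 and 142 (starved) and 147 and 172 (serum-treated) in polyribosome RNA. Its loading was -2.31 ± 0.22 (adjusted p = 0.00013), and here too the deposited polyribosome values were the higher ones. Rpl39 lies in the exit tunnel, and Rpl39l is its paralog known from testis. Rpl39l read 31.6 and 57.2 (starved) and 29.5 and 67 (serum-treated) against 75.8 and 78.8 (starved) and 91.7 and 68.2 (serum-treated), with a loading of -2.72 ± 0.26 (adjusted p = 0.00011). Rpl39 was dim, above background on 4 of 10 arrays, with values of 0.9 to 19.2 and a loading of -1.73 ± 0.59 (adjusted p = 0.036).

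The remaining members called lower were Rpl19 161961_at (-2.78), Rps13 (-1.71), Rps24 93121_at (-1.45), Rps29 98523_at (-1.31), Rpl7 97697_at (-1.26), Rpl10a 161327_f_at (-0.63) and Rps24 97696_r_at (-0.39), with adjusted p-values of 0.00015 to 0.018. The Rpl7 probe set was above background on no array, so its difference orders only background signal. Relative to the median of all probe sets, Rpl10a 161327_f_at lay above it by 0.02 under the 3 scalings without quantile normalization, so its direction rests on the scaling. When only probe sets above background on all 8 gradient arrays were kept, Rps24 97696_r_at and Rps28 98085_f_at also turned relative to the new median, to 0.03 and 0.19.

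Several members lay between the called ends and did not pass. Rpsa, also known as the laminin receptor precursor, read 75 and 128 (starved) and 27 and 116 (serum-treated) in undertranslated RNA against 842 and 887 (starved) and 1017 and 953 (serum-treated) in polyribosome RNA, with a loading of -0.51 ± 0.28 (adjusted p = 0.15). Rpl13a, known for silencing inflammatory transcripts when released from the ribosome, had a loading of 0.09 ± 0.26 (adjusted p = 0.78). The X-linked Rps4x was at -0.03 ± 0.14 (adjusted p = 0.87) through its bright probe set, and Rpl7l1, a paralog of Rpl7, at -0.35 ± 0.31 (adjusted p = 0.36).

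Large and small subunit mRNAs overlapped in loading. Of 20 large subunit probe sets, 4 were higher and 7 lower, with a median of -0.32. Of 17 small subunit probe sets, 4 were higher and 8 lower, with a median of -0.39. By probe set type, all 9 higher calls came from the 28 probe sets with the plain suffix _at (8 of which were lower, with a median near 0), while the 6 with suffix _r_at, chosen with fewer design rules, held 4 lower calls and a median of -1.52. The 4 with other suffixes, which mark probes shared between related sequences, held 3 lower calls and a median of -0.46. Genes with a C and T run at an annotated start had a median loading of -0.25 (n = 15) and those without one of -0.03 (n = 11), by the brightest tested probe set of each gene. Rps10 and Rps27 both carry the run and stand at 1.32 and -2.31, so runs occurred at both ends of the scale.

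Among the 9 genes with several probe sets, those of Rpl19 and Rpl22 differed by more than 2 log2 units in loading. The bright Rpl19 probe set read 278 and 419 (starved) and 68 and 223 (serum-treated) in undertranslated RNA against 4922 and 3990 (starved) and 4987 and 5234 (serum-treated) in polyribosome RNA. The dim one (161961_at) read 31.9 and 45.5 (starved) and 30.3 and 42.9 (serum-treated) against 63.2 and 33.1 (starved) and 109.5 and 55.7 (serum-treated), a spread of at most a few fold. Its loading of -2.78 ± 0.29 (adjusted p = 0.00015) is opposite to the 0.88 of the bright one. Which of them reports the Rpl19 mRNA was not tested.

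The order of the members was nearly the same in starved and serum-treated cells. As a share of the polyribosome intensity in the same-numbered array, the undertranslated intensity of Rpl8 was 0.568% and 1.16% in starved and 0.194% and 0.411% in serum-treated cells, the lowest of the 29 in all 4 pairs. At the other end it was 77.8% and 94.8% in starved and 60.8% and 78.1% in serum-treated cells for Rps24 97696_r_at, and 64.7% and 107% in starved and 36.8% and 61.9% in serum-treated cells for Rpl41. Next to Rpl8 stood Rps10, with 4.8% and 8.38% in starved and 1.29% and 2.68% in serum-treated cells, and Rpl37a, with 4.53% and 8.49% in starved and 1.86% and 3.67% in serum-treated cells. Ranks crossed between pairs, and Rps19 moved between places 6 and 13. Rps28 98086_r_at stood at places 18 and 17 in the starved and 28 and 22 in the serum-treated pairs. Rps29 98523_at went from 17 and 18 to 24 and 20, and Rps3a1 the other way, from 24 and 22 to 18 and 21. Across the 29 probe sets the log shares of any 2 pairs of arrays correlated at r = 0.91 to 0.97 (Spearman 0.90 to 0.94), a description in which the points share arrays and several share a gene.

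**Figure D3:**
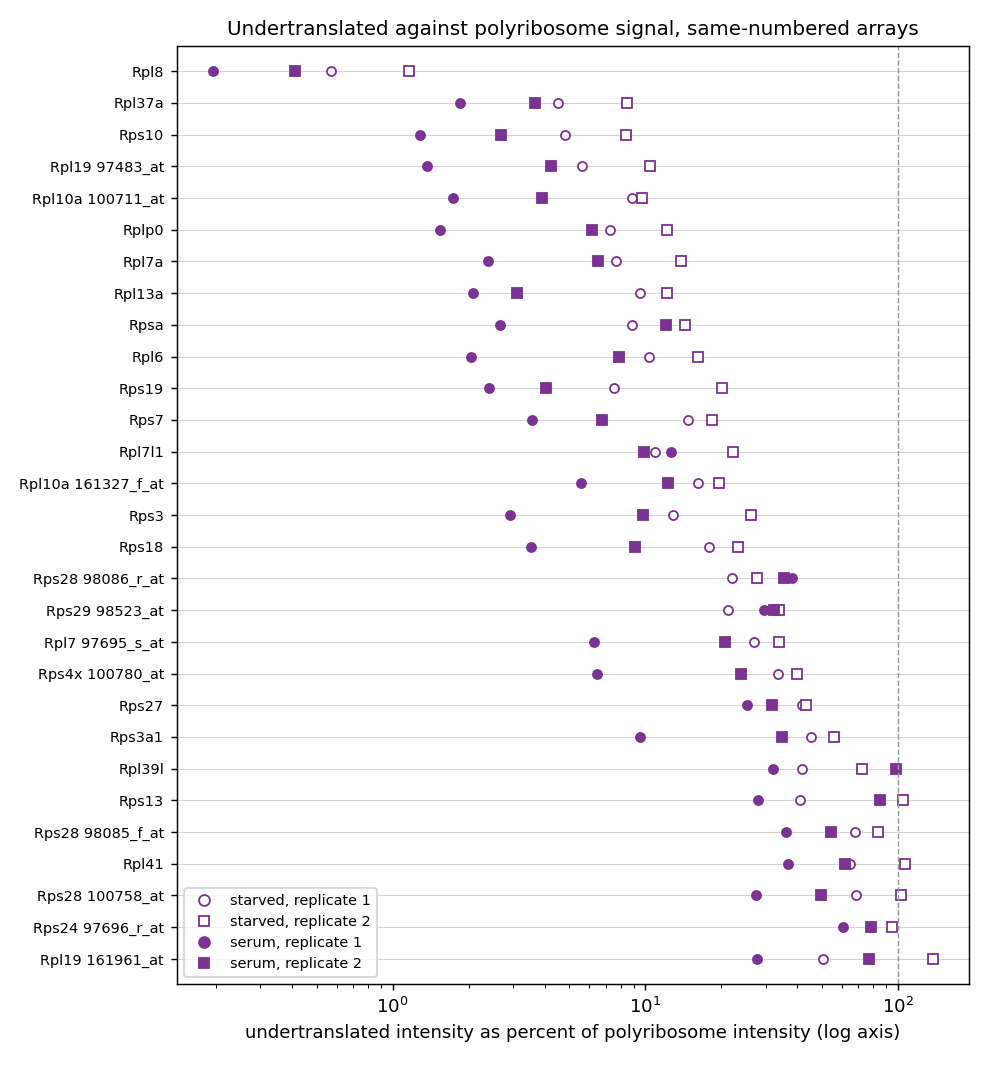
Undertranslated intensity as a percent of the polyribosome intensity on the same-numbered array (x axis, log) for the 29 members above background on all 10 arrays (y axis); open points are starved, filled points serum-treated, circles replicate 1 and squares replicate 2. Rpl8 lies at 0.194% to 1.16%, and the dashed line marks equal intensity.

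Tested within each serum state, 4 members were higher and 7 lower in starved cells, where 14.9% and 13.5% of all probe sets passed. In serum-treated cells 10 were higher and 12 lower, where 23.6% and 20.3% passed. With the values as deposited these counts were 26 higher and 1 lower in starved cells (85.7% and 0.322% of all probe sets) and 28 and 1 in serum-treated cells (85.8% and 0.311%). With hybridization control scaling they were 30 and 1 (92.7% and 0.236% of all) and 29 and 1 (87.4% and 0.279%). Median centring gave 5 and 11 in starved cells (34.9% and 13.5% of all) and 16 and 12 in serum-treated cells (41.7% and 15.9%). In starved cells the 4 higher were Rpl8 (3.65), Rpl22 92857_at (2.58), Rplp0 (1.60) and Rps10 (0.95). The 7 lower were Rpl32 (-3.49), Rpl19 161961_at (-2.76), Rpl39l (-2.35), Rps27 (-2.27), Rps28 100758_at (-1.81), Rpl41 (-1.43) and Rps24 97696_r_at (-0.44). In serum-treated cells the largest were Rpl8 (4.86), Rpl22 92857_at (3.43), Rplp0 (2.08), Rps10 (1.69) and Rps19 (1.43) on the higher side and Rpl32 (-4.86), Rpl39l (-3.10) and Rpl19 161961_at (-2.79) on the lower. The starved count was 17 of 38 (44.7%) without replicate 1 or without replicate 2 of serum-treated undertranslated RNA, where 45.4% and 45.6% of all probe sets passed. The serum-treated count was 13 (34.2%) without replicate 2 of serum-treated polyribosome RNA, where 19.6% of all passed. Different counts in the 2 states do not show that loading differed between them, which the next comparison tests.

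The recruitment question is whether serum moved these mRNAs toward polyribosomes within 2 h. The undertranslated share of the polyribosome intensity was lower with serum in both replicate pairs for 25 of the 29 members. Its median over the 29 was 16.2% and 23.2% in the starved pairs and 5.59% and 12.1% in the serum-treated pairs. Most other mRNAs read the same way in these deposited values: this direction in both pairs was seen in 62.4% of the 3624 probe sets above background on all arrays, beside 86.2% of the members. After quantile normalization the shift was toward polyribosomes in both pairs for 19 of the 29 (65.5%, against 32% of all such probe sets) and the other way for 4 (13.8% against 31%). Hybridization control scaling gave 21 of 29 (72.4% against 33.6%) and median centring 25 of 29 (86.2% against 56%).

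No member passed the test of the shift, and no probe set on the array did (0% in either direction; at an unadjusted p under 0.05, 2 members were higher and 2 lower, of 442 and 280 probe sets). The smallest adjusted p among members was 0.61. The count of 0 over the array did not hold when either replicate of serum-treated undertranslated RNA was left out. It changed far more without replicate 2 than without replicate 1. Each such fit leaves 1 array in the group whose replicates correlated least (r = 0.79). The spread of that group then no longer enters the fit, which therefore cannot decide whether loading shifted. The largest shifts toward polyribosomes were Rpl13a (1.34 ± 0.52), Rpl8 (1.22 ± 0.66), Rpl10a 100711_at (0.99 ± 0.50), Rps19 (0.87 ± 0.37) and Rpl22 92857_at (0.85 ± 1.18). Rpl13a read 103 and 167 in undertranslated RNA of starved and 27.2 and 64.7 of serum-treated cells, while its polyribosome values were 1083 and 1373 (starved) and 1311 and 2075 (serum-treated). The serum values of its undertranslated RNA lay below the starved ones in both replicates. The largest shifts the other way were Rpl22 92856_at (-1.75 ± 0.76), Rps24 93121_at (-1.59 ± 0.65), Rpl32 (-1.37 ± 0.68), Rps4x 162498_r_at (-1.33 ± 1.24) and Rps28 98086_r_at (-1.13 ± 0.61). All of these but the last were below background on at least 1 array. The median shift was 0.18 over the 38 members and 0.07 over all probe sets, with quantile normalization.

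**Figure D4:**
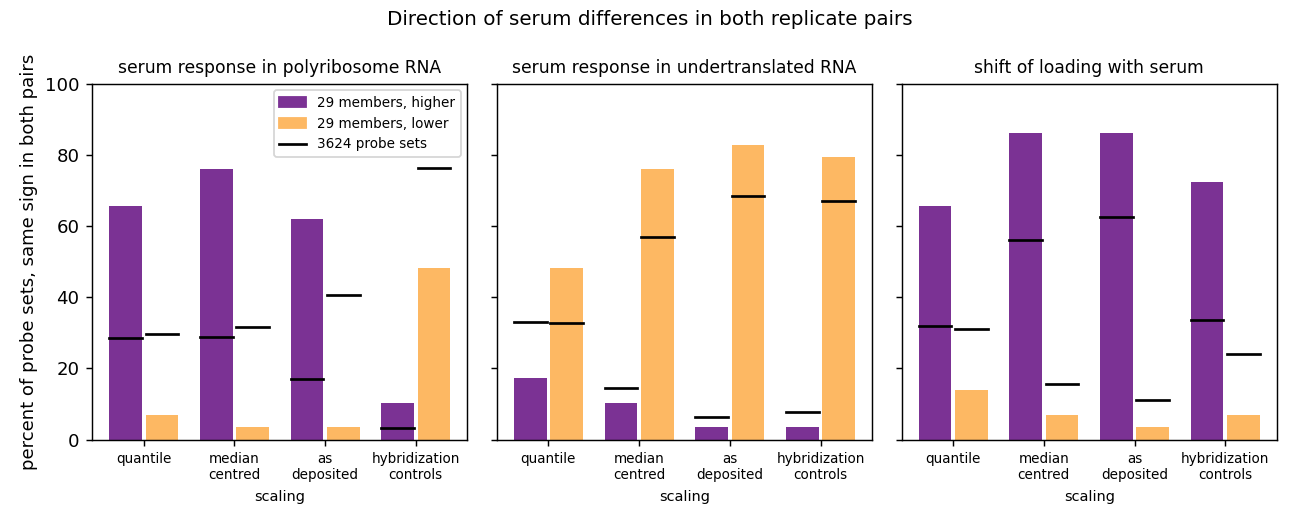
Percent of probe sets (y axis) whose serum difference had the same sign in both replicate pairs, for the 29 members (bars; purple higher, orange lower with serum) and for 3624 probe sets above background on all arrays (black lines), in 3 panels under 4 scalings (x axis). In polyribosome RNA 65.5% of members were higher with quantile normalization and 10.3% with scaling to hybridization controls.

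In the deposited values most members read lower in undertranslated RNA after serum, as most other mRNAs did. Of the bright members, 24 of the 29 were lower in both undertranslated pairs, beside 68.5% of all such probe sets, and 1 was higher, beside 6.21%. With quantile normalization 14 were lower, beside 32.8%, and 5 higher, beside 33%. Median centring gave 22 lower (56.8% of all), and hybridization control scaling 23 lower and 1 higher (67.1% and 7.78% of all). No member passed the test, where 0.29% of all probe sets were called higher and 0.784% lower (limma, adjusted p under 0.05; at an unadjusted p under 0.05, 4 members were higher and 1 lower, of 700 and 1055 probe sets). The lowest differences were Rpl8 (-1.34 ± 0.47), Rpl22 92857_at (-1.25), Rpl13a (-0.76), Rps19 (-0.48) and Rps18 (-0.42). The highest were Rpl22 92856_at (1.67 ± 0.54), Rpl32 (1.62), Rps24 93121_at (1.56), Rps28 98086_r_at (0.87) and Rpl39l (0.87). Leaving out replicate 2 of serum-treated undertranslated RNA leaves 1 array in that group. The difference was then 2.02 for Rpl22 92856_at, 1.82 for Rps24 93121_at, 1.80 for Rpl32 and -1.97 for Rpl8. On the undertranslated arrays the ratio of 3′ to 5′ Actb signal, a sign of RNA integrity and amplification length, was 137 and 61.4 in starved and 23.6 and 33.9 in serum-treated cells, against 11.5 to 21.1 in polyribosome RNA. The same ratio for Gapdh lay the other way, at 5.64 and 6.81 in starved and 3.70 and 4.53 in serum-treated undertranslated RNA against 6.11 to 20.9 in polyribosome RNA. The part of either in the result was not tested.

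In polyribosome RNA the members' serum differences were small. With quantile normalization 19 of the 29 were higher in both pairs (28.4% of all such probe sets) and 2 were lower (29.7%), and as deposited 18 were higher (16.9%) and 1 lower (40.6%), while scaling to hybridization controls turned this to 3 higher and 14 lower (3.37% and 76.2% of all such probe sets). No member passed and no probe set on the array did (0%; 2 members and 105 probe sets were higher at an unadjusted p under 0.05). The highest were Rpl19 161961_at (0.69 ± 0.40), Rpl35a (0.67), Rps7 (0.62 ± 0.26), Rpl10a 100711_at (0.60) and Rpl13a (0.58). The lowest were Rps4x 162498_r_at (-0.94), Rpl22 92857_at (-0.40), Rps28 98086_r_at (-0.26), Rpl41 (-0.15) and Rpl8 (-0.12). Rps7 is known to bind Mdm2 when ribosome assembly fails. It read 2794 and 2691 in starved and 3216 and 4417 in serum-treated cells, and its adjusted p was 1. The 19 macrophage marker probe sets summed to 1678 and 1380.4 in starved polyribosome RNA and to 4304 and 5432 after serum. Of these 19, 11 were above background on each starved and 12 and 13 on the serum-treated polyribosome arrays, and 7 of the 10 tested were called higher with serum in the fit of polyribosome and cytoplasmic RNA. Their sum was 439 and 997 in the cytoplasmic pair, and Itgam, an integrin of myeloid cells, was below background on all 10 arrays. The part of these markers in the members' values was not tested.

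Joining polyribosome and cytoplasmic RNA in 1 fit of 6 arrays called 0.666% of all probe sets higher with serum and 0.225% lower, and no member (none at an unadjusted p under 0.05 either). The members' differences ran from -0.40 (Rps4x 162498_r_at) to 0.88 (Rpl39), both dim, with Rpl7 97697_at (-0.31), Rpl22 92857_at (-0.21), Rps28 98086_r_at (-0.21) and Rps24 93121_at (-0.18) next at the low end. Rpl35a (0.54), Rpl19 161961_at (0.45), Rpl7l1 (0.36) and Rps3a1 (0.32) followed at the high end. The median was 0.08, against -0.01 for all probe sets. Of the 29 bright members, 7 were higher in all 3 pairs (19.4% of all such probe sets) and 1 was lower in them (20.4%) with quantile normalization, while hybridization control scaling gave 0 higher (2.68%) and 12 lower (59.9%).

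The cytoplasmic pair has 1 array per serum state and so no test. In it the members stood on both sides of 0: 18 of the 38 were higher and 19 lower with serum, with a median of -0.01. Rps13 was the lowest of the 29 bright members, at 33.1 and 14.7 in starved and serum-treated cells (-0.95 on the log2 scale). Rps7 followed at 1746 and 1313 (-0.51), and Rps3a1 was the highest at 3381 and 4103 (0.50). For 13 of the 29 the cytoplasmic difference was opposite in sign to both polyribosome pairs, 12 of them lower in cytoplasmic and higher in polyribosome RNA, and for 8 it had the sign of both. Among all 3624 such probe sets 18.3% were opposite and 39.8% had the same sign. The direction of the 12 was that of 41.4% of the 29 and 9.05% of the 3624. With hybridization control scaling 5 of the 29 were opposite (17.2%, against 16.9% of all) and 12 had the same sign (41.4% against 62.6%). In that scaling 3 of the 29 were lower in cytoplasmic and higher in both polyribosome pairs (10.3% against 0.69%).

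**Figure D5:**
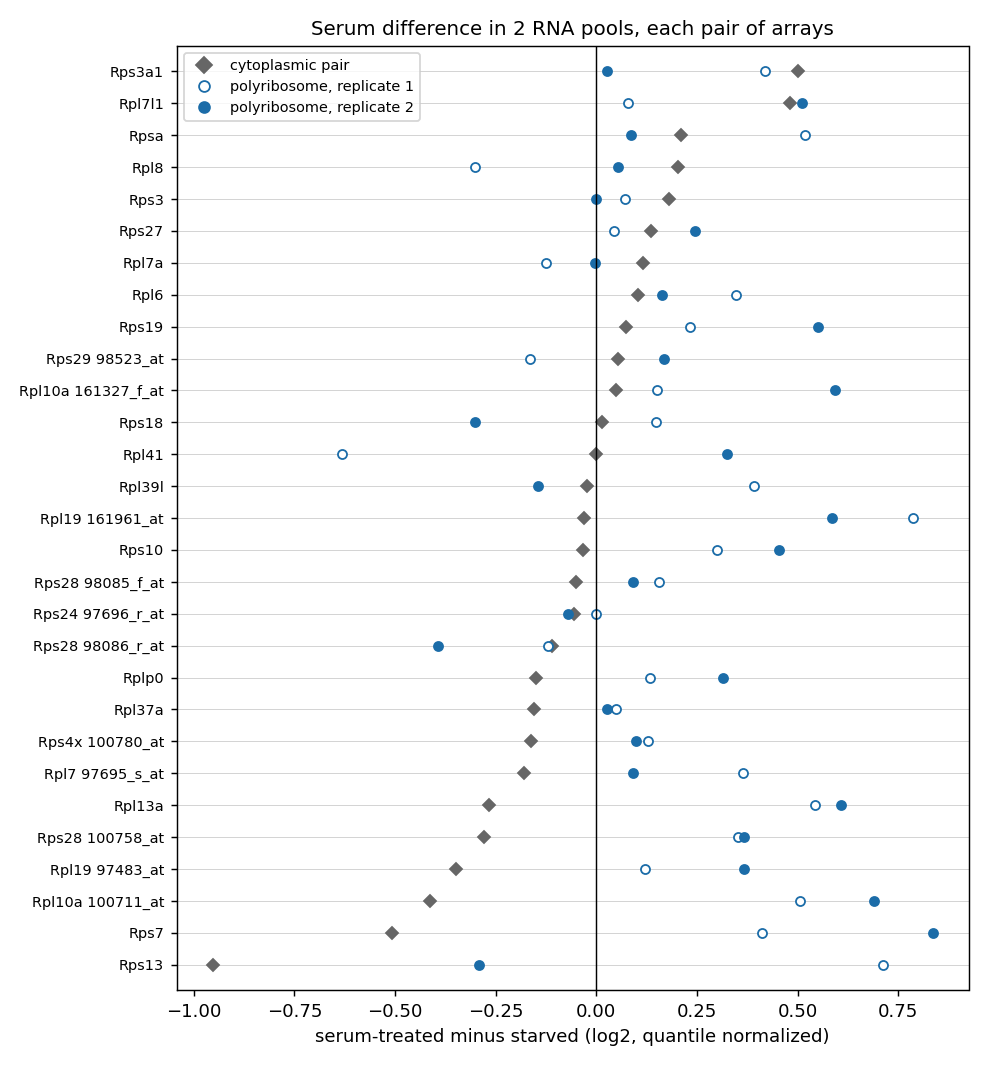
Serum-treated minus starved (x axis, log2 after quantile normalization) for the 29 members above background on all 10 arrays (y axis, ordered by the cytoplasmic value); diamonds are the cytoplasmic pair and circles the polyribosome pairs, 1 point per pair of arrays. Rps7 is at -0.51 in cytoplasmic RNA and at 0.41 and 0.83 in polyribosome RNA.

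Set against total cytoplasmic RNA, 5 members were higher and 4 lower in polyribosome RNA, where 14.5% and 12% of all probe sets passed. The split was 32 and 0 as deposited (75.8% and 0.934% of all probe sets), 7 and 3 with median centring (17.5% and 8.9%) and 4 and 5 with hybridization control scaling (8.22% and 12.7%). The higher ones were Rps19 (1.57 ± 0.21, adjusted p = 0.0014), Rpl7a (1.24), Rpl37a (0.87), Rplp0 (0.86) and Rpl6 (0.66). Rps19 read 1179 and 1163 in cytoplasmic RNA of starved and serum-treated cells, below all 4 polyribosome values. The lower ones were Rpl41 (-2.24 ± 0.22, adjusted p = 0.00058), Rps13 (-1.18), Rpsa (-0.67) and Rps27 (-0.58). Rpl41 had cytoplasmic values of 5824 and 6059, within or above the range of its polyribosome arrays. The count of 9 of 38 was 3 (7.89%) without the starved and 2 (5.26%) without the serum-treated cytoplasmic array, where 14.1% and 3.78% of all probe sets passed. It was 5 (13.2%) without replicate 2 of serum-treated polyribosome RNA, where 19.7% of all passed. Rpl41 and Rpl7a passed in all 3 of those fits, and Rps19 in 2 of them. With the replicate number as a block the count was 6.

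In undertranslated against cytoplasmic RNA, 13 members were higher and 6 lower, where 14.3% and 15.9% of all probe sets passed. These values share the undertranslated arrays with the loading above. As deposited the split was 0 and 13 (1.06% and 57.8% of all probe sets), with median centring 9 and 6 (12.1% and 32.8%), and with hybridization control scaling 0 and 34 (0.0751% and 96.8%). The lower ones were Rpl8 (-3.84 ± 0.47, adjusted p = 0.00075), Rpl22 92857_at (-3.64), Rplp0 (-0.98), Rps18 (-0.87), Rps10 (-0.82) and Rpl41 (-0.73). Rpl41 lay above the median of all probe sets by 0.68 with the other 3 scalings, so its direction is not settled. The 10 highest were Rpl39l (2.69 ± 0.39, adjusted p = 0.0015), Rpl32 (2.64), Rps28 98086_r_at (1.98), Rpl19 161961_at (1.97), Rps27 (1.73), Rps29 98523_at (1.65), Rps28 100758_at (1.17), Rpl10a 161327_f_at (0.94), Rpl7a (0.79) and Rpl7 97695_s_at (0.73). Rpl32 was below background on both cytoplasmic arrays (7.4 and 5.4), and its fold of at least 4.02-fold holds within quantile normalization only. Without the serum-treated cytoplasmic array 5 of 38 passed (13.2%, where 5% of all probe sets did): Rpl8, Rpl41, Rps28 100758_at, Rps24 97696_r_at and Rpl7a. With quantile normalization Rplp0 was thus higher in polyribosome and lower in undertranslated RNA than in cytoplasmic RNA, while Rpl7a was higher in both. In deposited intensity Rpl7a read 403.5 and 602 (starved) and 115.5 and 309.8 (serum-treated) in undertranslated RNA. Its cytoplasmic values of 824.1 and 849.7 lay above all of these.

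Other genes of the translation machinery, in lists chosen with earlier results known, are given with the same test after quantile normalization. Of all probe sets, 28.8% were higher and 25.3% lower in polyribosome RNA in that test. With the values as deposited 91.9% of all were higher, so the directions hold within this scaling only. Of 67 probe sets for mitochondrial ribosomal proteins, which serve the organelle and lack a TOP tract as a class, 28 were higher and 14 lower in polyribosome RNA, with a median of 0.69. Mrpl45 (3.67), Mrps18a 94327_at (3.16) and Mrps34 (2.93) led them. Of 22 probe sets for other TOP mRNAs, 8 were higher and 7 lower (median 0.24), among them the elongation factor subunit Eef1d at 4.19 and, at the low end, the noncoding host RNA Gas5 98530_at at -2.72 and Naca, a chaperone at the exit tunnel, at -2.63. Of 50 probe sets for ribosome assembly factors, 20 were higher and 11 lower (median 0.40), led by Utp4 (3.27) and Pes1 (3.23). Of 24 for mTOR, S6 kinase and Larp regulators, 8 were higher and 4 lower (median 0.56), among them Rraga, a GTPase that brings mTOR to the lysosome, at 4.91 and the kinase Akt1 at 3.29. The 1 tested probe set for other ribosome-associated proteins was not called (-0.82). Of these lists' probe sets, 2 mitochondrial ribosomal protein probe sets were called lower with serum in undertranslated RNA, where 0.784% of all were. No member of any list was called in polyribosome RNA or for the shift.

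The profiles most like the mean of the 47 members over the 10 arrays were those of Gpc1 (Pearson r = 0.96), Coro2b (0.96) and Agr2 (0.95), a probe set listing several Tcp10 genes (0.95) and 1 with no symbol (0.95). These correlations are over 10 arrays that fall into 3 pools, so the points are not independent.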

How the data were processed

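RNA from 10 samples in 6 groups was reverse-transcribed, linearly amplified, labelled with biotin and hybridized to Affymetrix MG-U74Av2 arrays (per the labels' protocols). As deposited, each probe set has 1 linear intensity, and the method that summarised and scaled them is not given in the sources used here. Gene symbols came from the platform annotation, and no column of other samples was present. Of 12488 probe sets, 66 were controls. A pseudocount of 1.5, the 10th percentile of all values, was added, log2 was taken and all 10 arrays were quantile normalized. A filter on mean level at its 25th percentile kept 9316 probe sets. Differences were tested with limma 3.58.1 (lmFit, eBayes with a variance trend) in R 4.3.3, two-sided, with Benjamini-Hochberg adjustment over all probe sets tested and a threshold of 0.05. The gradient comparisons used 1 group-means fit of 8 arrays (4 residual degrees of freedom) and each fit with cytoplasmic arrays used 6 arrays (3 residual degrees of freedom). Scripts were tested on simulated data. A value below background in a whole group is given as a bound against the lowest level above background.

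The members, gene lists and tests were chosen with earlier results of these data known. The text names up to 10 called members in each direction per comparison, or the 5 highest and 5 lowest differences where none passed, a list of chosen genes, the brightest and dimmest members, and up to 4 called genes of each other list. Replicate numbers mark the labelling with 4-thiouridine in the labels. As a check, deviations from the group means of same-numbered arrays had a correlation of 0.28 in the 2 polyribosome groups and of 0.02 to 0.05 in every other combination of groups. Over the tested members alone it was 0.50 in the polyribosome groups, 0.56 in the undertranslated groups and -0.09 to 0.19 between pools. Alternatives covered scaling, pseudocount, filter, variance trend, samples in the fit, probe sets per gene, a replicate block and leaving out each array. Nuclear RNA was not analysed here.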

Additional observations from a re-analysis of the deposited data

Results flagged for a closer look

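For 13 probe sets above background on all arrays, the serum difference in the cytoplasmic pair was opposite in sign to that in both polyribosome pairs. The cytoplasmic difference minus the mean polyribosome difference, on the log2 scale after quantile normalization, was -1.13 for Rps7, -1.01 for Rpl10a 100711_at, -0.84 for Rpl13a, -0.72 for Rpl19 161961_at, -0.64 for Rps28 100758_at and -0.59 for Rpl19 97483_at. It was -0.41 for Rpl7 97695_s_at, -0.41 for Rps10, -0.37 for Rplp0, -0.28 for Rps4x 100780_at, -0.19 for Rpl37a and -0.17 for Rps28 98085_f_at. Rpl7a alone of the 13 was opposite in direction, at 0.18. With hybridization control scaling the number opposite was 5 of 29. The difference was not tested, since the cytoplasmic groups have 1 array each, and cycloheximide was given to the gradient cultures only.

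A signal was also present in probe sets outside the rule. Of 39 probe sets that list a ribosomal protein gene together with other genes, 31 were above background on all 10 arrays. Of the 37 tested, 6 were higher and 17 lower in polyribosome than in undertranslated RNA, with a median of -0.49. Of all probe sets, 28.8% and 25.3% passed in those directions with quantile normalization.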

How the results depend on the processing

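The direction of loading rests on the scaling, and the order of members rests on 2 arrays per gradient group and 1 per cytoplasmic group. With the values as deposited the called members numbered 27 of 38 for loading in starved cells (11 in the main setting) and 32 for polyribosome against cytoplasmic RNA (9), while calls over all 9316 probe sets rose from 2648 to 8013 and from 2465 to 7153. With hybridization control scaling they numbered 31 for loading in starved cells and 34 for undertranslated against cytoplasmic RNA (19), and without the variance trend 9 for the latter, where all calls numbered 8658, 9021 (2816 in the main setting) and 2245. Relative to the median of all probe sets, Rpl10a 161327_f_at turned to 0.016 in loading and Rpl41 to 0.68 in undertranslated against cytoplasmic RNA with the values as deposited, median centring or hybridization control scaling. With only probe sets above background on all gradient arrays, a filter chosen after seeing the data, Rps24 97696_r_at turned to 0.035 over both states, 0.018 in starved and 0.060 in serum-treated cells, and Rps28 98085_f_at to 0.19. The members' median minus that of all probe sets in the cytoplasmic pair moved to 0.047 under the 3 other scalings and to 0.037 with 1 probe set per gene. The cause of these changes was not tested.

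Leaving out each array in turn gave 21 to 26 called members for loading over both states (24 in the main setting), 8 to 17 in starved and 13 to 25 in serum-treated cells (22), 0 to 4 for serum in undertranslated RNA, 2 to 9 for polyribosome and 5 to 22 for undertranslated against cytoplasmic RNA. It gave 0 for the shift, for serum in polyribosome RNA and for serum in polyribosome and cytoplasmic RNA, as did every other alternative for these and for serum in undertranslated RNA. With the replicate block the called members numbered 27 for loading, 13 and 22 in starved and serum-treated cells, 6 for polyribosome and 20 for undertranslated against cytoplasmic RNA, and 0 for the 4 serum comparisons. Of all probe sets, 54.5% were then called for loading, and 29.2% and 44.4% in starved and serum-treated cells. Against cytoplasmic RNA 26.7% were called for polyribosome and 29.6% for undertranslated RNA.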
